A study of Danio rerio with 12 samples.

Results

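The respiratory chain genes of the zebrafish embryo were described in embryos mutant for ddx3xb and in control embryos at 2, 4 and 6 hours post fertilization (hpf). Members were all Ensembl gene IDs whose symbol, read without regard to case, begins with mt-, nduf, sdh followed by a to d, uqcr, cox4 to cox8, or atp5, kept where RPKM, the read count relative to gene length and library size, reached 1 in any of the 6 deposited tables. This left 100 genes of the 17053 that passed the same filter: 13 protein genes of the mitochondrial genome, 74 nuclear encoded subunits and 13 assembly factors and inhibitors. The nuclear subunits belong to complex I (36 genes), complex II (4), complex III (7), complex IV (10) and complex V (17). Of 109 IDs whose symbol fits, 9 were under the filter: cox4i1l, COX4I2, cox6b1, cox7a1, ndufa4b, ndufa4l2b and a further ID each of COX5B, COX6A1 and SDHD. UQCRB, with a highest RPKM of 1.01, and cox8b, with 1.1, lay just inside the filter, and the further COX5B ID, with 0.74, just outside it. Ribosomal RNA and transfer RNA genes of mitochondria were not among the members.

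Poly(A) RNA of whole embryos was sequenced from mutants labelled ddx3xb-/- (genotype Ddx3xb-/Ddx3xb-) and from controls labelled ddx3xb+/+ (wild type), each at 2, 4 and 6 hpf, with 2 samples per genotype and hour. The labels name no other allele or treatment and give neither the clutches nor the number of embryos in a sample. Each table holds 1 value per gene for its pair of samples. All values below are therefore the authors' group values without an error, no test could be run, and no p-value is given.

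The respiratory chain of the inner mitochondrial membrane takes electrons from NADH at complex I and from succinate at complex II, passes them through complex III to complex IV, where oxygen is reduced, and pumps protons that drive ATP synthesis at complex V. A few core subunits of complexes I, III, IV and V are encoded in mitochondrial DNA and transcribed there, while all other subunits, complex II included, are nuclear genes whose proteins are imported. The egg brings both its mitochondria and a stock of nuclear encoded mRNA, and the embryo's own nuclear genome becomes active between the earliest and the later of these hours.

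Library depth, recovered from the low values, was at least 37.8 M reads in each of 12 libraries. The highest value, 79.2 M reads for a mutant library at 4 hpf, is uncertain and could be too high by a factor of 2. For low genes with 20 to 150 reads, the only ones for which the libraries of a pair could be separated, the scaled median absolute deviation of their log2 ratio was 1.16, 1.15 and 1.24 in mutants at 2, 4 and 6 hpf, against 0.84, 0.95 and 0.75 in controls. Counting of reads alone would give 0.58, 0.60 and 0.61 in mutants and 0.58, 0.58 and 0.48 in controls. This was not worked out for the members by themselves, so the spread between their replicates is unknown. Some members lay at low values in controls at 2 hpf, among them NDUFA6 (0.70 RPKM), cox5aa (1.27 RPKM) and NDUFA3 (1.65 RPKM). Their differences at that hour rest on these low values. RNA of ddx3xb, the mutated gene, whose product is an RNA helicase of the DEAD-box family, stood at an RPKM of 0.70, 18.8 and 48.8 in mutants at 2, 4 and 6 hpf, against 325, 318 and 194 in controls. The 5 marker genes of muscle, liver and blood found in the tables were at an RPKM of 1.08 or less in every group.

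All 13 mitochondrially encoded genes stood higher in mutant than in control embryos at every hour. The median difference on the log2(RPKM + 1) scale, mutant minus control, was 0.60 at 2 hpf, 0.54 at 4 hpf and 0.46 at 6 hpf, where the medians over all 17053 genes were 0.01, 0.01 and 0.22. The direction depended on scaling at 6 hpf: after trimmed-mean rescaling, which levels the tables on the bulk of the genes and moves the median of all genes at 6 hpf to -0.09, the median of the mitochondrially encoded genes was 0.03 with 8 of 13 above 0, while all 13 were above 0 at 2 and 4 hpf. After quantile normalization 9, 12 and 10 of 13 were above 0 at 2, 4 and 6 hpf and 0, 0 and 1 below. The others were at 0, because this scaling gives genes of equal rank in 2 tables equal values. A difference of at least 1 log2, that is 2-fold, was reached by mt-atp8 at 2 hpf (1.07) and by MT-CYB at 6 hpf (1.04, but 0.61 after trimmed-mean rescaling). Among all genes, 4.14% were higher by that much at 2 hpf, 3.79% at 4 hpf and 18.3% at 6 hpf. A higher value of any size in mutants was held by 8800, 8628 and 10204 of all 17053 genes at these hours. The value of mt-atp8 is uncertain, because its gene overlaps that of MT-ATP6, which differed by 0.31 log2 at 2 hpf.

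The subunits of complex IV that form its catalytic core were the most abundant members, except that MT-CYB stood above MT-CO3 in mutants at 6 hpf. MT-CO1, which carries the site where oxygen is reduced, stood at an RPKM of 11866, 13831 and 16936 in mutants at 2, 4 and 6 hpf, against 7834, 9262 and 9234 in controls. MT-CO2 stood at 8163, 8609 and 9292 in mutants and at 5214, 5620.1 and 5795 in controls. MT-CO3 stood at 8110.4, 8243 and 8182 in mutants and at 5191, 5539 and 5796 in controls. The 3 genes thus lay 0.50 to 0.88 log2 higher in mutants at all hours, on the deposited scale.

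MT-CYB, the only subunit of complex III encoded in mitochondria, stood at 6546, 7384 and 8679.9 RPKM in mutants, against 3998, 4423 and 4210.4 in controls. Its difference was 0.71, 0.74 and 1.04 log2. Of the complex V pair, MT-ATP6, part of the proton channel, differed by 0.31, 0.34 and 0.08 log2, with 4491, 3829 and 3578 RPKM in mutants and 3616, 3029 and 3390.3 RPKM in controls. The short gene mt-atp8 was the least abundant of the 13, at 76.3, 72.5 and 88.9 RPKM in mutants and at 35.7, 39.2 and 49.0 RPKM in controls.

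The 7 mitochondrially encoded subunits of complex I form its proton pumping arm and lay between 869 and 2083 RPKM in mutants and between 609 and 1347 RPKM in controls. MT-ND3 had the largest difference of them, with 1982, 1884 and 2083 RPKM in mutants against 998, 949 and 1248 RPKM in controls, or 0.99, 0.99 and 0.74 log2. MT-ND1 had the smallest at 6 hpf, with 1336 RPKM in mutants and 1271 RPKM in controls (0.07 log2). The differences of MT-ND2, MT-ND4, MT-ND5, MT-ND6 and mt-nd4l ran from 0.21 to 0.67 log2 over the 3 hours. In vertebrate mitochondrial DNA the genes of MT-ATP6 and mt-atp8 overlap, as do those of MT-ND4 and mt-nd4l, and MT-ND6 lies on the opposite strand to the other subunit genes. How reads over such stretches were assigned is not given in the sources used here, so these values are uncertain.

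**Figure D1:**
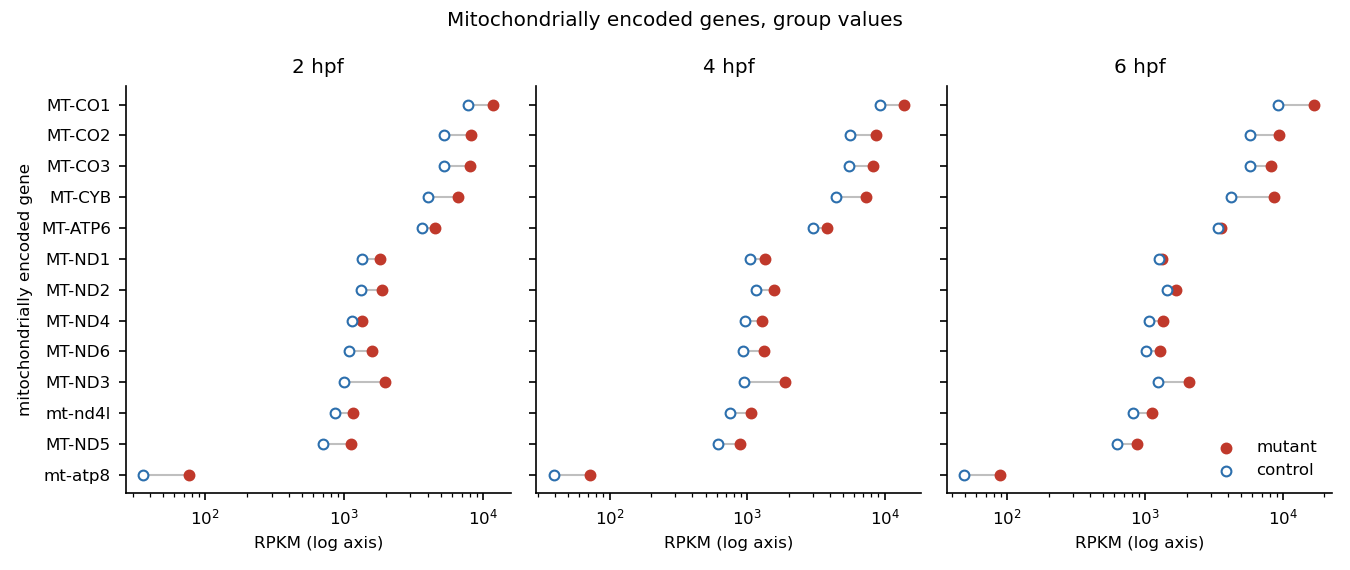
RPKM on a log axis of each mitochondrially encoded gene at 2, 4 and 6 hpf, with the authors' group value of mutants as filled red circles and that of controls as open blue circles, joined by a line. The mutant value lies to the right of the control value for all 13 genes at each hour, and the pair lies closest for MT-ND1 and MT-ATP6 at 6 hpf, where 8 of 13 stay above 0 after trimmed-mean rescaling.

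The plot of mitochondrial RPKM also shows MT-CO1 highest, MT-CO2, MT-CO3 and MT-CYB below it, MT-ATP6 next and mt-atp8 lowest in all 6 groups. Among the 3 in between the order was not constant: at 6 hpf MT-CYB stood above MT-CO3 in mutants, and MT-CO2 and MT-CO3 were almost equal in controls. From 2 to 4 hpf all 7 complex I genes stood lower at the later hour in both genotypes, by 0.06 to 0.42 log2 in mutants and by 0.07 to 0.36 log2 in controls (in mutants 4 of 7 after quantile normalization). In the same interval MT-CYB and the 3 MT-CO genes stood higher, by 0.02 to 0.22 log2 in mutants and by 0.09 to 0.24 log2 in controls, but 1 of the 3 MT-CO genes in mutants was below 0 after trimmed-mean rescaling. After quantile normalization 0 of these 4 genes were above 0, but that scaling cannot show a change in genes that keep their rank. On the deposited scale, 9326 of all 17053 genes stood higher and 7446 lower at 4 than at 2 hpf in mutants. In controls 9466 stood higher and 7502 lower. The order of MT-CYB and the 3 MT-CO genes was the same at both hours in either genotype. These 4 genes made up 69.2%, 74.1% and 76.3% of the summed RPKM of the 13 in mutants, against 66.7%, 72.4% and 69.6% in controls. The differences are small, and whether they exceed the spread between replicates is not known.

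Together the 13 genes held 10.1%, 10.2% and 10.9% of the summed RPKM of all gene IDs in mutants at 2, 4 and 6 hpf, against 7.03%, 7.02% and 7.09% in controls. The 74 nuclear subunits held 0.606%, 0.714% and 0.565% in mutants, against 0.450%, 0.609% and 0.663% in controls. The mitochondrial sum was thus 16.7, 14.3 and 19.4 times the nuclear sum in mutants and 15.6, 11.5 and 10.7 times in controls. Since poly(A) RNA was selected, more RNA and longer poly(A) tails cannot be told apart in these values. In RNA of whole embryos, fewer cells of a kind and less RNA per cell cannot be told apart either.

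The nuclear encoded subunits stood higher in mutants at 2 and 4 hpf and lower at 6 hpf. Their median difference was 0.60 log2 at 2 hpf, with 69 of 74 above 0, and 0.34 log2 at 4 hpf, with 61 above 0. At 6 hpf it was -0.34 log2, with 53 of 74 below 0, and the direction at each hour was the same after trimmed-mean rescaling (0.54, 0.28 and -0.74) and quantile normalization (0.57, 0.30 and -0.42). Of all 17053 genes, 8800, 8628 and 10204 stood above 0 at 2, 4 and 6 hpf, and 6836 stood below 0 at 6 hpf. By single genes, 45 of the 74 stood above 0 at 2 and 4 hpf and below 0 at 6 hpf. A further 14 stood above 0 at all hours, and 1 stood below 0 at all hours. This tally was not made over all genes, so these counts have no share of all genes beside them.

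At 2 hpf 15 of the 74 nuclear subunits passed 1 log2 upwards in mutants and 0 downwards, where 4.14% of all genes were higher and 3.34% lower by that much. At 4 hpf 4 were higher and 1 was lower, where 3.79% of all genes were higher and 6.31% lower. At 6 hpf 4 were higher and 9 lower, where 18.3% of all genes were higher and 8.91% lower. After trimmed-mean rescaling the split at 6 hpf was 2 higher and 26 lower, where 13.5% of all genes were higher and 17.9% lower. Against all genes, the nuclear median lay 0.59 and 0.34 log2 above the median at 2 and 4 hpf and 0.55 log2 under it at 6 hpf (-0.55; -0.64 after trimmed-mean rescaling). Sums of marker genes for egg and gastrula differed between the genotypes at 6 hpf. At 6 hpf the summed RPKM of 5 egg RNAs (buc, ZAR1, BTG4, cth1 and nanog) was 695 in mutants and 91.6 in controls, and that of 5 gastrula genes (krt4, krt8, tbx16, GSC and chrd) was 1697 in mutants and 2643 in controls. Of the gastrula genes, krt4, krt8 and chrd were lower in mutants at 6 hpf, but tbx16 (179 RPKM in mutants, 132 RPKM in controls) and GSC (68.8 RPKM in mutants, 27.5 RPKM in controls) were higher. At 2 hpf the egg RNAs summed to 2274 in mutants and 2726 in controls, but ZAR1 was higher in mutants (45.7 RPKM, against 28.3 RPKM in controls). At 4 hpf they summed to 2017 in mutants and 1992 in controls. There buc, ZAR1, BTG4 and cth1 were higher in mutants, and nanog was lower (806 RPKM in mutants, 1126 RPKM in controls). The gastrula genes summed to 28.0 in mutants and 151 in controls at 4 hpf. The part of these marker genes in the members' differences was not tested.

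**Figure D2:**
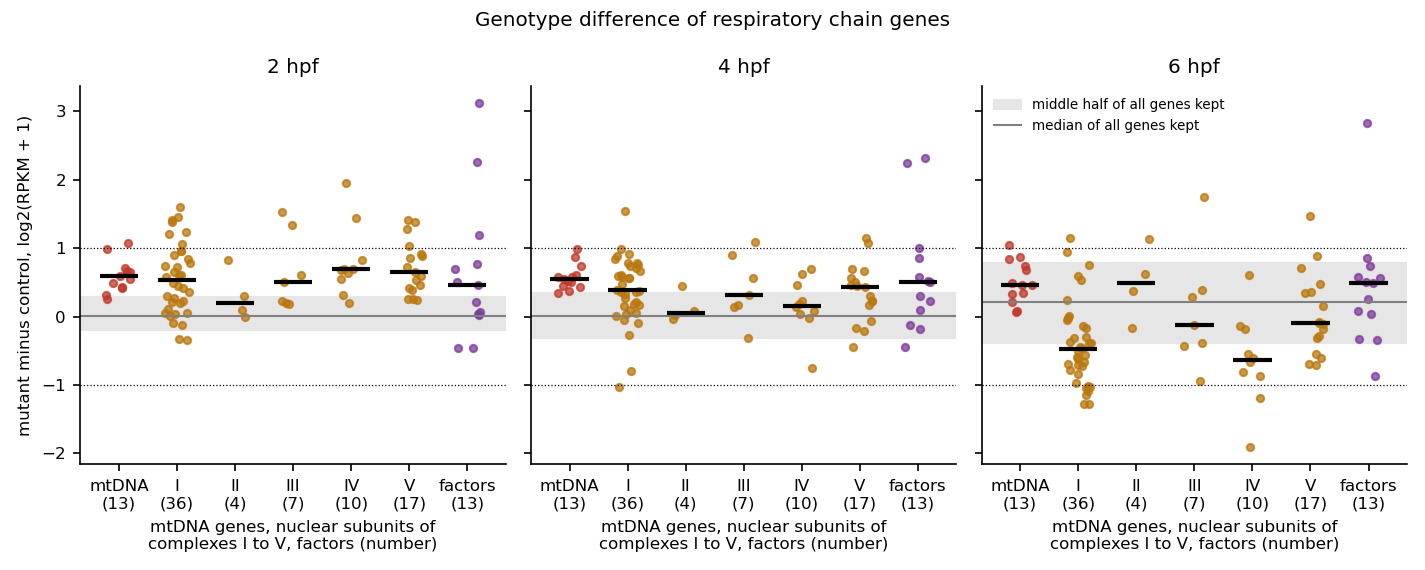
Difference of log2(RPKM + 1), mutant minus control, at 2, 4 and 6 hpf for mitochondrially encoded genes, nuclear subunits of complexes I to V, and assembly factors and inhibitors. Points are genes, black bars the set medians, dotted lines mark 1 log2 in either direction, the grey band spans the quartiles of all 17053 genes and the grey line is their median. At 2 hpf the medians run from 0.19 (complex II) to 0.69 (complex IV); at 6 hpf complexes I and IV lie at -0.48 and -0.64 while mitochondrially encoded genes lie at 0.46 (-0.90, -1.07 and 0.03 after trimmed-mean rescaling).

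Complex I, the NADH dehydrogenase, had a median difference of 0.54, 0.38 and -0.48 log2 at 2, 4 and 6 hpf (-0.90 at 6 hpf after trimmed-mean rescaling), with 7, 1 and 1 of 36 nuclear subunits past the threshold upwards and 0, 1 and 7 downwards. The shares of all genes past it were 4.14%, 3.79% and 18.3% upwards and 3.34%, 6.31% and 8.91% downwards. NDUFS4, an accessory subunit of the module that binds NADH, stood at 11.3, 13.5 and 5.69 RPKM in mutants, against 3.69, 3.97 and 8.07 RPKM in controls. It was thus higher in mutants by 1.39 and 1.54 log2 at the first hours and not at 6 hpf (-0.44). NDUFA6, another accessory subunit, stood at 3.53, 3.29 and 14.1 RPKM in mutants and at 0.70, 2.68 and 35.6 RPKM in controls, a difference of 1.41, 0.22 and -1.27 log2. NDUFA2 followed a like course, with 7.42, 10.1 and 18.8 RPKM in mutants and 2.58, 8.88 and 41.1 RPKM in controls, or 1.24, 0.16 and -1.09 log2.

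NDUFS6 showed almost no difference at 2 hpf, with 2.46 RPKM in mutants and 2.33 RPKM in controls. It then stood at 3.02 and 20.8 RPKM in mutants at 4 and 6 hpf, against 5.97 and 47.4 RPKM in controls (-0.79 and -1.15 log2). For ndufa5 the values were 2.77, 4.62 and 26.7 RPKM in mutants and 1.68, 10.5 and 48.4 RPKM in controls, and it was the only nuclear subunit lower by at least 1 log2 at 4 hpf (-1.03). Both genes stood many times higher at 6 hpf than at 2 hpf in either genotype.

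Nuclear core subunits of complex I, which hold its flavin and iron-sulfur clusters, did not share 1 direction at 6 hpf. NDUFV1, which binds NADH, stood at 45.8, 41.6 and 28.0 RPKM in mutants, against 58.0, 50.4 and 12.04 RPKM in controls, and was higher in mutants by 1.15 log2 at 6 hpf (0.76 after trimmed-mean rescaling). Its partner NDUFV2 stood at 4.79, 9.83 and 16.5 RPKM in mutants, against 4.01, 9.09 and 34.9 RPKM in controls, and was lower by 1.04 log2 at 6 hpf (-1.04). NDUFS1 differed by 0.59 log2 and NDUFS3, NDUFS7 and NDUFS8 by -0.02, -0.62 and -0.39 log2 at that hour. ndufb3 and NDUFA3, accessory subunits of the membrane arm, had the largest differences at 2 hpf, with 13.1 and 6.25 RPKM in mutants against 3.66 and 1.65 RPKM in controls (1.60 and 1.45 log2). NDUFA1, also of the membrane arm, was among the lowest at 6 hpf, with 6.10 RPKM in mutants and 16.1 RPKM in controls (-1.27).

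Complex II, the succinate dehydrogenase, is encoded in the nucleus alone. Its 4 subunits had a median difference of 0.19, 0.05 and 0.50 log2; at 4 hpf the median was -0.01 after trimmed-mean rescaling and -0.03 after quantile normalization, and at 6 hpf 0.08 and 0.31. SDHD, one of its membrane anchors, stood at 44.4, 53.0 and 25.6 RPKM in mutants and at 44.8, 52.3 and 11.1 RPKM in controls. The values of the first hours were thus nearly equal, and at 6 hpf SDHD was higher in mutants by 1.13 log2 (0.74 after trimmed-mean rescaling and 0.88 after quantile normalization). The catalytic subunits SDHA and SDHB differed by 0.62 and 0.37 log2 at 6 hpf, with 20.2 and 55.9 RPKM in mutants and 12.8 and 43.0 RPKM in controls. SDHC, the other anchor, had its largest difference at 2 hpf, with 17.5 RPKM in mutants and 9.44 RPKM in controls (0.82 log2).

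Complex III, the cytochrome bc1 complex, had a nuclear median of 0.51, 0.32 and -0.12 log2, and at 6 hpf -0.54 after trimmed-mean rescaling, -0.27 after quantile normalization and 0.08 when an RPKM of at least 1 in 2 tables was required. UQCRFS1, the Rieske iron-sulfur protein, was the only nuclear subunit of the chain higher by at least 1 log2 at all 3 hours, a count not made over all genes. It stood at 51.8, 66.0 and 51.5 RPKM in mutants, against 19.8, 30.4 and 14.6 RPKM in controls (1.34, 1.09 and 1.75 log2). The core subunit gene uqcrc2a stood at 8.16, 11.9 and 9.56 RPKM in mutants and at 2.16, 5.90 and 7.06 RPKM in controls (1.53, 0.90 and 0.39 log2). UQCRC1 stayed within 0.19 log2 of equality at each hour, and the small subunits UQCRH and UQCRQ differed by -0.43 and -0.95 log2 at 6 hpf, with 162 and 38.5 RPKM in mutants and 218 and 75.1 RPKM in controls.

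Complex IV, the cytochrome c oxidase, had the largest median of the 5 complexes at 2 hpf (0.69 log2, all 10 nuclear subunits above 0) and the lowest at 6 hpf (-0.64 log2, 9 of 10 below 0), with 0.16 log2 at 4 hpf. After trimmed-mean rescaling the value at 6 hpf was -1.07, and after quantile normalization it was -0.63, next to -0.64 for complex I. Of all 17053 genes, 8800 stood above 0 at 2 hpf and 6836 below 0 at 6 hpf on the deposited scale. cox8a stood at 10.7, 8.44 and 21.8 RPKM in mutants, against 6.46, 14.9 and 84.6 RPKM in controls, and its difference of -1.91 log2 at 6 hpf was the lowest among the members. COX7A2 stood at 11.1, 14.8 and 12.8 RPKM in mutants and at 6.52, 12.4 and 30.5 RPKM in controls (0.68, 0.23 and -1.19 log2). COX4I1, a subunit at which the complex is regulated by ATP, stood at 58.9, 78.2 and 79.8 RPKM in mutants, against 51.3, 68.9 and 146 RPKM in controls (-0.86 log2 at 6 hpf). cox6a1 was higher in mutants by 1.44 log2 at 2 hpf, with 30.7 RPKM in mutants and 10.7 RPKM in controls, and stood at 37.3 RPKM in mutants and 59.98 RPKM in controls at 6 hpf (-0.67 log2). cox5aa stood at 7.83, 1.22 and 1.22 RPKM in mutants, against 1.27, 1.25 and 0.45 RPKM in controls, so that only the value of mutants at 2 hpf was apart from the others (1.96 log2).

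Complex V, the ATP synthase, had a nuclear median of 0.66, 0.44 and -0.10 log2 (-0.53 at 6 hpf after trimmed-mean rescaling), with 4, 2 and 1 of 17 subunits past 1 log2 upwards at 2, 4 and 6 hpf and 0 downwards. The shares of all genes past it were 4.14%, 3.79% and 18.3% upwards and 3.34%, 6.31% and 8.91% downwards. atp5f1e, a subunit of the central stalk, stood at 54.5, 56.1 and 32.1 RPKM in mutants, against 19.9, 24.8 and 34.5 RPKM in controls (1.41, 1.15 and -0.10 log2). ATP5MG of the membrane part followed the same course, with 54.4, 62.8 and 38.4 RPKM in mutants and 21.8, 29.1 and 43.6 RPKM in controls (1.28, 1.08 and -0.18 log2). atp5mf, also of the membrane part, differed by 1.38 log2 at 2 hpf and by -0.71 log2 at 6 hpf, with 12.1 and 19.1 RPKM in mutants and 4.03 and 31.9 RPKM in controls. ATP5F1A of the catalytic head did not follow this course. It stood at 206, 330 and 219 RPKM in mutants and at 171, 370 and 118 RPKM in controls (0.26, -0.16 and 0.88 log2), while its partner ATP5F1B differed by 0.46, 0.23 and -0.10 log2. atp5mea, of the membrane part, was the only subunit of the complex higher by at least 1 log2 at 6 hpf, with 44.4 RPKM in mutants and 15.3 RPKM in controls (1.48 log2).

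**Figure D3:**
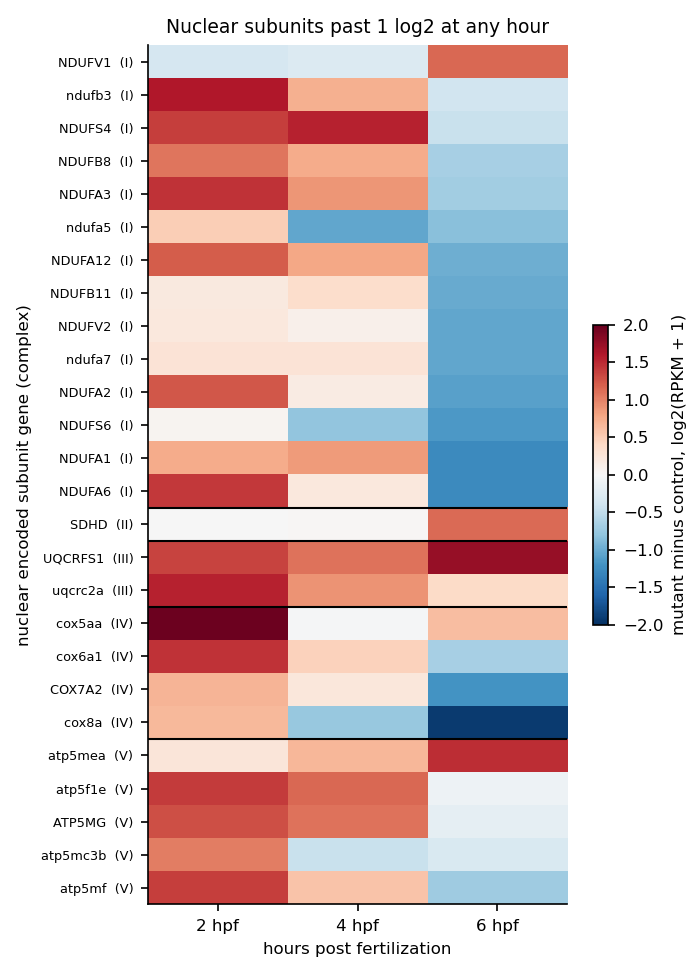
Difference of log2(RPKM + 1), mutant minus control, of the 26 nuclear subunits that passed 1 log2 in either direction at any hour (rows, grouped by complex and ordered by the value at 6 hpf) at 2, 4 and 6 hpf (columns), red where higher in mutants, blue where lower, with colours limited to 2 log2 in either direction. Of the 26 rows, 24 lie above 0 at 2 hpf, 20 at 4 hpf and 6 at 6 hpf. The rows were chosen by these same differences, so their counts are no support for a change of direction. All genes were not chosen in this way. Of all 74 nuclear subunits, 69, 61 and 21 lie above 0 at these hours. UQCRFS1 is red throughout, and cox8a has the deepest blue at 6 hpf (-1.91).

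In several genes with close copies, reads could have been divided between IDs, and sums over copies were compared as well. Summed over atp5mea and atp5meb, the difference was 0.45, 0.55 and 0.75 log2. For the 3 genes of the c ring (atp5mc1, ATP5MC3 and atp5mc3b) it was 0.61, 0.02 and 0.03 log2, for NDUFAB1 with ndufab1b 0.28, 0.03 and -0.13 log2, and for NDUFA9 with ndufa9b 0.02, 0.14 and 0.76 log2. UQCRC2 with uqcrc2a gave 0.64, 0.40 and 0.31 log2. Adding the low IDs of SDHD, COX5B and cox6a1 left differences of 1.1, -0.54 and -0.67 log2 at 6 hpf.

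The assembly factors and inhibitors had a positive median at all hours (0.46, 0.51 and 0.49 log2, and 0.08 at 6 hpf after trimmed-mean rescaling), with 3, 3 and 1 of 13 past 1 log2 upwards and 0 downwards. Of all genes, 4.14%, 3.79% and 18.3% were higher and 3.34%, 6.31% and 8.91% lower by that much at 2, 4 and 6 hpf. atp5if1a, which encodes an inhibitor that stops the ATP synthase from running backwards, had the largest difference of all members. It stood at 296, 281 and 241 RPKM in mutants, against 33.2, 55.2 and 162 RPKM in controls, which is 8.93, 5.08 and 1.48 times the control value (3.12, 2.33 and 0.57 log2). The mutant values lay close together over time, while those of controls were higher at each later hour. Its paralog atp5if1b stood at 17.1, 25.7 and 20.5 RPKM in mutants and at 9.56, 17.8 and 14.4 RPKM in controls (0.77, 0.51 and 0.49 log2).

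NDUFAF8, a factor needed to assemble complex I in human cells, was higher in mutants by 2.26, 2.24 and 2.83 log2. It stood at 50.7, 37.9 and 14.7 RPKM in mutants, against 9.78, 7.24 and 1.21 RPKM in controls. It was thus lower at each later hour in both genotypes. NDUFAF6 stood at 4.63, 8.87 and 5.83 RPKM in mutants and at 1.46, 3.91 and 3.58 RPKM in controls, and its difference was close to the threshold (1.20, 1.01 and 0.58 log2). The remaining 10 factors lay between -0.86 and 0.86 log2 at all hours. NDUFAF1, another complex I factor, and SDHAF2, which helps to attach flavin to SDHA, formed these ends at 6 hpf, with 3.87 and 10.3 RPKM in mutants and 7.86 and 5.23 RPKM in controls.

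**Figure D4:**
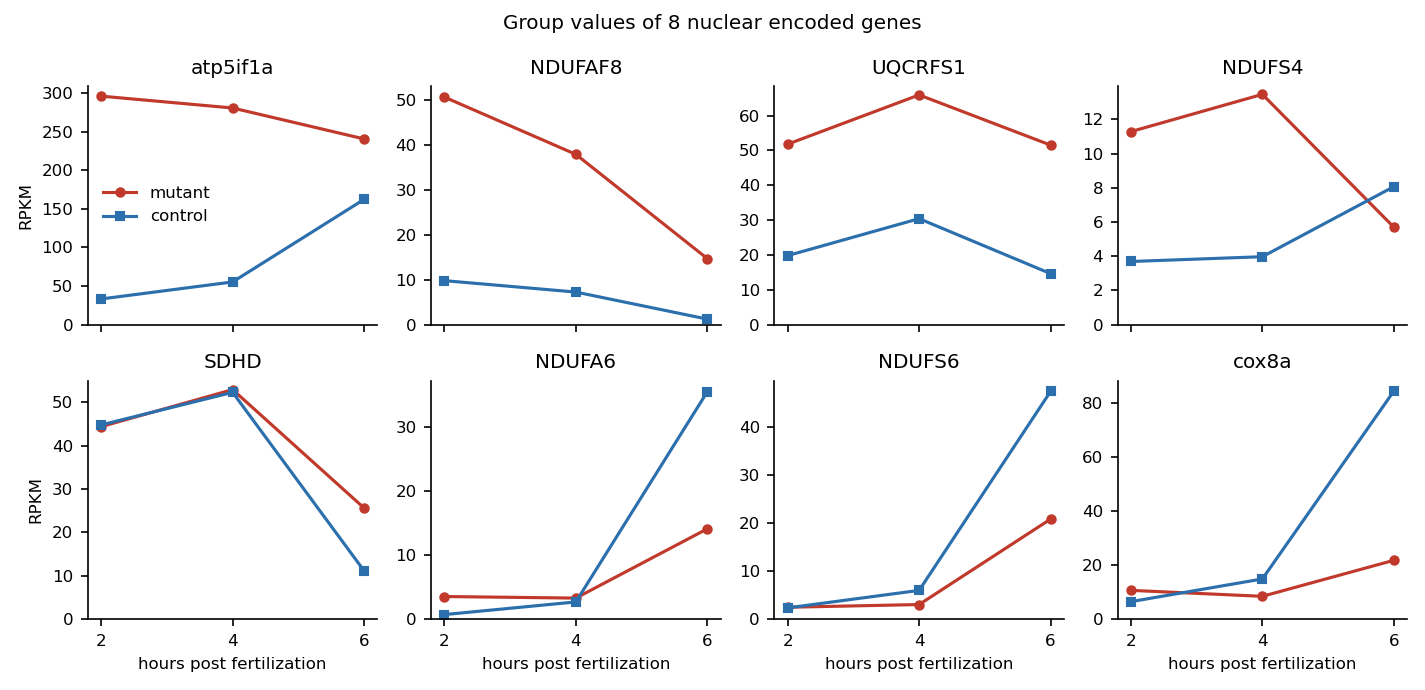
RPKM of 8 nuclear encoded genes at 2, 4 and 6 hpf, with the authors' group value of mutants as red circles and that of controls as blue squares; vertical axes start at 0 and differ between panels. atp5if1a, NDUFAF8 and UQCRFS1 stand higher in mutants at each hour, SDHD separates at 6 hpf, and NDUFA6, NDUFS6 and cox8a stand lower in mutants at 6 hpf.

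Between hours, more nuclear subunits passed 1 log2 in controls than in mutants, and so did more of all genes. From 2 to 4 hpf the nuclear median was 0.22 log2 in mutants, with 1 of 74 past the threshold upwards (ndufab1b) and 1 downwards (cox5aa, -1.99 log2), where 3.21% of all genes were higher and 0.264% lower. In controls it was 0.45 log2, with 20 of 74 higher and 0 lower, where 8.79% of all genes were higher and 2.84% lower. The mitochondrially encoded genes had medians of -0.07 log2 in mutants and -0.19 log2 in controls.

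From 4 to 6 hpf the medians depended on scaling, because the median of all genes was -0.33 log2 in mutants and -0.52 log2 in controls, against 0.00 and 0.07 after trimmed-mean rescaling. In mutants the nuclear median was -0.27 log2 (0.17 after trimmed-mean rescaling, -0.04 after quantile normalization), with 4 of 74 higher and 10 lower, where 12.3% of all genes were higher and 18.9% lower; the split was 9 higher and 1 lower after trimmed-mean rescaling and 8 and 4 after quantile normalization. In controls the nuclear median was 0.44 log2 (1.23 and 0.87 under these scalings), with 22 higher and 10 lower, where 17.3% of all genes were higher and 35.1% lower; the split was 40 higher and 3 lower after trimmed-mean rescaling and 33 and 6 after quantile normalization. Relative to all genes, the nuclear median was thus 0.07 log2 higher in mutants and 0.95 log2 higher in controls. The mitochondrially encoded median was 0.08 log2 in mutants and 0.14 log2 in controls, with 0.53 and 0.96 after trimmed-mean rescaling and -0.30 and -0.47 after quantile normalization.

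Accessory subunits had the largest positive differences between 4 and 6 hpf. NDUFA6, NDUFS6 and NDUFA3 stood higher at 6 than at 4 hpf by 1.82, 2.44 and 0.92 log2 in mutants and by 3.31, 2.80 and 2.52 log2 in controls. cox8a did so by 1.27 log2 in mutants and 2.43 log2 in controls. In the other direction, SDHD differed by -1.02 log2 in mutants and by -2.14 log2 in controls, atp5mea differed by -1.29 log2 in mutants and -2.10 log2 in controls, and NDUFV1 by -0.55 log2 in mutants and -1.98 log2 in controls. By complex, the median for this interval was 0.05 log2 in mutants and 1.13 log2 in controls for complex IV (0.50 and 1.95 after trimmed-mean rescaling), and -0.73 log2 in mutants and -0.87 log2 in controls for complex II (-0.30 and -0.08 after it).

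**Figure D5:**
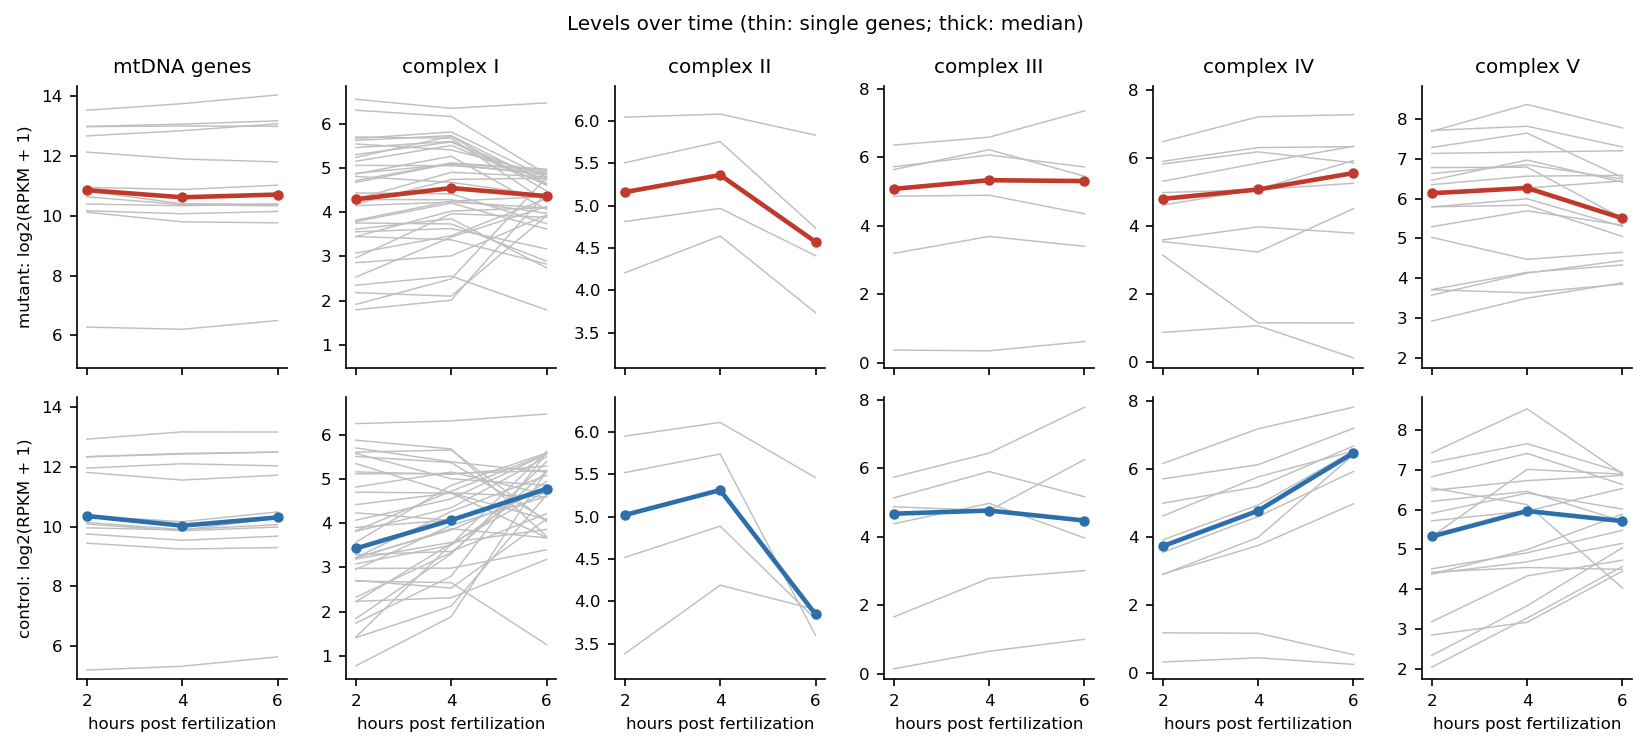
log2(RPKM + 1) at 2, 4 and 6 hpf in mutants (upper row) and controls (lower row) for mitochondrially encoded genes and the nuclear subunits of complexes I to V; thin grey lines are genes and thick lines medians. In controls the median lines of complexes I and IV climb from 4 to 6 hpf (medians of the difference 0.71 and 1.13). In mutants the median line of complex I falls (-0.30), and the median difference of complex IV is 0.05. After trimmed-mean rescaling these medians are 0.13 and 0.50 in mutants and 1.52 and 1.95 in controls. On this deposited scale the mitochondrially encoded genes are nearly level in both (0.08 in mutants and 0.14 in controls). Their medians are 0.53 and 0.96 after trimmed-mean rescaling and -0.30 and -0.47 after quantile normalization.

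The genotype difference itself was compared between hours. Between 2 and 6 hpf it was lower at the later hour in 36 of 74 nuclear subunits and higher in 3, both by the same threshold, where 10.9% of all genes were lower and 18.0% higher, and the nuclear median was -0.95 log2. For the mitochondrially encoded genes 0 of 13 passed that size, with a median of -0.20 log2 (-0.58 after trimmed-mean rescaling and 0.09 after quantile normalization). By complex the medians of this difference between hours were -1.21 log2 for complex I, 0.30 for complex II (-0.05 after trimmed-mean rescaling), -0.61 for complex III (-0.92 after quantile normalization), -1.33 for complex IV and -0.56 for complex V (-0.93 after trimmed-mean rescaling). Among the nuclear subunits, NDUFA6 and cox8a had the lowest values (-2.68 and -2.55 log2) and NDUFV1 the highest (1.49 log2). The inhibitor gene atp5if1a, not a subunit, stood at -2.56 log2. The mitochondrially encoded and nuclear medians of the genotype difference were both 0.60 log2 at 2 hpf (0.27 and 0.57 after quantile normalization), the mitochondrially encoded one was 0.20 log2 above the nuclear one at 4 hpf, and it was 0.80 log2 above it at 6 hpf.

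The nuclear subunits were also divided by their course in controls from 2 to 4 hpf, hours that share no table with the difference at 6 hpf. The 34 subunits that stood higher at 4 than at 2 hpf by more than 0.5 log2 had a median genotype difference of -0.58 log2 at 6 hpf, with 29 below 0. The 27 between 0 and 0.5 log2 had a median of -0.12 log2, with 17 below 0, and the 13 below 0 one of -0.13 log2, with 7 below 0. These values are on the deposited scale. All genes were not divided in this way, so the relation cannot be called particular to the subunits.

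In order of level, ATP5F1A, atp5mc1 and ATP5F1B were the most abundant nuclear subunits at 2 and 4 hpf in both genotypes, with atp5mc1 first in mutants at 2 hpf and ATP5F1A first in the others. At 6 hpf ATP5F1A led in mutants (219 RPKM), followed by UQCRH (162), atp5mc1 (157) and COX5B (154). In controls COX5B (225 RPKM) and UQCRH (218) led at 6 hpf, followed by COX4I1 (146), atp5mc1 (121) and ATP5F1A (118). Without an error on these values, neighbours in this order cannot be separated.

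Other genes of mitochondrial energy metabolism were given by lists, whose medians at 6 hpf depended on scaling. The 15 genes of the citric acid cycle and pyruvate dehydrogenase had medians of 0.05, -0.19 and 0.43 log2 at 2, 4 and 6 hpf. Of these, 1, 0 and 1 passed 1 log2 upwards and 0 downwards, where 4.14%, 3.79% and 18.3% of all genes were higher and 3.34%, 6.31% and 8.91% lower. The gene past it was MDH2, malate dehydrogenase, with 130, 172 and 99.8 RPKM in mutants and 56.7, 111 and 38.9 RPKM in controls. The 11 genes of cytochrome c, cyc1 and ubiquinone synthesis had medians of -0.11, 0.03 and -0.20 log2, and 2 of them were higher by at least 1 log2 at 6 hpf, a share close to the 18.3% of all genes. These were PDSS2, which builds the ubiquinone side chain, with 11.9 RPKM in mutants and 1.46 RPKM in controls (2.39 log2), and COQ3, a methyltransferase of the same route, with 14.7 RPKM in mutants and 5.37 RPKM in controls (1.30 log2).

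The 27 other assembly factors had medians of 0.01, 0.23 and -0.06 log2, with 1, 1 and 7 past 1 log2 upwards and 0, 2 and 2 downwards. Of all genes, 4.14%, 3.79% and 18.3% were higher and 3.34%, 6.31% and 8.91% lower at 2, 4 and 6 hpf. After trimmed-mean rescaling the split of the 27 at 6 hpf was 3 higher and 5 lower, where 13.5% of all genes were higher and 17.9% lower. At 6 hpf the 7 included ttc19 of complex III (1.72 log2), ACAD9 of complex I (1.64 log2) and the copper carrier cox17 (1.46 log2, with 50.3 RPKM in mutants and 17.7 RPKM in controls), and the 2 were COX10 (-1.43 log2) and SCO2 (-1.15 log2), both of complex IV. The 13 genes of mitochondrial DNA upkeep and transcription had medians of 0.10, 0.26 and -0.20 log2. SLIRP, which stabilizes mitochondrial mRNA in mammals, was higher by 1.71 and 1.22 log2 at 2 and 4 hpf, with 10.6 and 19.2 RPKM in mutants and 2.55 and 7.68 RPKM in controls, and RNASEH1 was higher by 1.48 log2 at 4 hpf. None of these 13 passed 1 log2 at 6 hpf, where 18.3% of all genes were higher and 8.91% lower by that much.

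The 6 biogenesis regulators had medians of 0.05, -0.04 and 0.21 log2, and 0 of 6 passed 1 log2 in either direction at any hour. Of all genes, 4.14%, 3.79% and 18.3% were higher and 3.34%, 6.31% and 8.91% lower by that much at the 3 hours. The 20 genes of import and carriers had medians of 0.11, -0.07 and -0.09 log2. Of them 1 was higher by at least 1 log2 at each hour, where 4.14%, 3.79% and 18.3% of all genes were. At 6 hpf 3 of them were lower by that much, where 8.91% of all genes were. TIMM8A, a chaperone between the membranes, was the higher one at 2 and 4 hpf (1.09 and 1.02 log2) and timm10b at 6 hpf (1.41 log2). TIMM22, the carrier translocase (-1.64 log2), HSPE1, the matrix chaperonin's partner (-1.18 log2), and tomm40l (-1.06 log2) were the lower ones. After trimmed-mean rescaling, under which the median of all genes at 6 hpf was -0.09, the lists' medians at that hour were 0.0090 for the citric acid cycle, -0.61 for cytochrome c and ubiquinone, -0.43 for the other assembly factors, -0.63 for DNA upkeep, -0.16 for the biogenesis regulators and -0.51 for import. The same rescaling turned small positive medians negative at 2 hpf for the citric acid cycle (-0.011), the other assembly factors (-0.039) and the biogenesis regulators (-0.0083), and at 4 hpf for cytochrome c and ubiquinone (-0.025). No list had a median at 2 hpf as high as those of the mitochondrially encoded genes or nuclear subunits of complexes I, III, IV and V, which is a description of these group values without a test.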

How the data were processed

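The authors deposited 1 table of RPKM values for each genotype and hour, with 33737 Ensembl gene IDs and 1 value per ID for a pair of samples; 21939 IDs have a symbol. Symbols came from a table of gene names. RNA was extracted with TRIzol, purified on Dynabeads and prepared with a stranded KAPA kit, per the labels' protocols. Per the submitters' processing notes, cutadapt 1.13, Trimmomatic 0.36, HISAT2 2.0.5, SAMtools 1.9 and the build Zv9 were used. For the counting tool, the annotation, strand and the way of combining replicates, the sources used here give nothing.

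Values were compared as differences of log2(RPKM + 1), which understates those of low genes, among genes that reached an RPKM of 1 in any table. The size threshold was 1 log2, and a gene past it need not differ by more than replicates do. The limma fit foreseen for 12 samples was impossible with a single value per group. Set medians stand beside those of all 17053 genes.

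Depths were recovered from low values, which fall on whole reads of 2 libraries if a table holds their plain mean: 1895 genes were solved, and 0 after each value had been moved by up to 0.5%. The recovery of depths and gene lengths was tested on simulated data, whose depths did not reach the highest one recovered here. The moving of values and the spread between libraries were not tested in this way. Reads were not used in any count test. The series text calls the replicates biological.

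Named were every mitochondrially encoded gene; in each complex and among the factors the 3 genes with the largest difference in each direction and comparison, given RPKM 5 or more in the higher table; core subunits, of which 1 result is not reported here; paralogs; and list genes past 1 log2, chosen after their values were seen. Members and lists were chosen with earlier results of these data known. Alternatives were a pseudocount of 0.1, other filters, trimmed-mean rescaling, quantile normalization, scaling without mitochondrially encoded genes, and summing IDs of 1 symbol. Promoter and protein sequences were not used here. Python 3.11.15, pandas 2.3.3, numpy 2.4.6 and matplotlib 3.10.9 were used.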

Additional observations from a re-analysis of the deposited data

Results flagged for a closer look

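NDUFA6 and NDUFA2, accessory subunits of complex I, passed 1 log2 in opposite directions at different hours. NDUFA6 differed by 1.41 log2 at 2 hpf and by -1.27 log2 at 6 hpf, mutant minus control. NDUFA2 differed by 1.24 log2 at 2 hpf and by -1.09 log2 at 6 hpf. The difference between hours was not tested, since each group has 1 value, and no search for samples far from their group could be made for the same reason.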

How the results depend on the processing

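No paired analysis was possible because each table holds 1 value for its pair of samples; leaving out a replicate could not be done for the same reason. Of 252 recomputed medians, contrasts and counts of the mitochondrially encoded genes and nuclear subunits, 227 kept their direction and moved by less than 0.2 log2 (counts: less than 1.5 times); the cause of the other changes was not tested. With single complexes, genes and shares included, 1460 of 1608 values stayed within such limits. For a named gene the limits were its direction and its side of 1 log2, and for a share 1.1 times. Named genes passed the threshold anew in 21 cases and no longer in 9. Both totals pool all alternatives, so they do not measure how far the results depend on scaling. Each alternative covers only a part of the 1608 values. Trimmed-mean rescaling left 251 the same, moved 52 and reversed 6, and named genes passed the threshold anew in 13 cases and no longer in 5. Quantile normalization left 288 the same, moved 40 and reversed 6, with 2 such cases anew and 3 no longer. Scaling without mitochondrially encoded genes left 325 the same and moved 1, and 1 named gene no longer passed. Summing IDs of 1 symbol left 96 the same and moved 0. With trimmed-mean rescaling, the mitochondrially encoded genes had medians of 0.029 (6 hpf, 0 past 1 log2), 0.53 (mutant, 4 to 6 hpf), 0.96 (control, 4 to 6 hpf) and -0.58 (difference from 2 to 6 hpf), and the nuclear subunits -0.74 (6 hpf, 2 higher and 26 lower), 0.17, 1.23 and -1.32. Quantile normalization, which gives genes of equal rank in 2 tables equal values, gave the mitochondrially encoded genes 0.27 (2 hpf), 2 past 1 log2 at 6 hpf, -0.30, -0.47 and 0.089, and the nuclear subunits 2 higher at 6 hpf, -0.039 and 0.87. The contrast of the genomes was then -0.30 (2 hpf), -0.26 (mutant, 4 to 6 hpf), -1.34 (control, 4 to 6 hpf) and 1.09 (difference from 2 to 6 hpf), and 0.092 at 2 hpf without a filter. A pseudocount of 0.1 gave 8 nuclear subunits higher at 4 hpf. Medians of single complexes changed sign for complex II at 4 hpf (-0.010 and -0.027 under the 2 scalings) and from 2 to 6 hpf (-0.055), for complexes I, III and V in mutants from 4 to 6 hpf (0.13, 0.13 and 0.091 with trimmed-mean rescaling; 0.091 for complex I with quantile normalization), and for complex III when RPKM of at least 1 in 2 tables was asked (0.078 at 6 hpf; -0.012 in controls from 4 to 6 hpf).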
